A study of Caenorhabditis elegans with 12 samples.

Results

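Young adult *eat-2(ad465)* animals, which take in less food, were compared with wild-type (N2) animals of the same stage across all expressed genes. The comparison used the 3 libraries labelled *eat-2* and the 3 labelled N2, 6 of the 12 in the series, and 15344 of the 45836 listed genes had enough reads to be tested. The *eat-2* animals carried the *ad465* allele, a mutation in a subunit of the acetylcholine receptor of the pharynx, in an otherwise wild-type background, and the N2 animals carried no mutation. Both were grown at 20 °C on OP50 bacteria, synchronized by bleaching, and collected by hand, about 300 animals per library, as day 0 adults before they held eggs. Each library was made from whole animals, so a smaller number of cells of a type and less RNA per cell cannot be told apart. The *eat-2* strain is 1 allele kept at low intake through all of development, which is not the same as food withdrawal in the adult. The remaining 6 libraries carry the *nhr-62(tm1818)* mutation with or without *eat-2*. They entered the fit for its estimate of spread, and are otherwise used only to compare the *eat-2* effect between backgrounds near the end.

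The pharynx is the muscular pump that draws in bacteria, and its rhythm depends on acetylcholine released onto the receptor that EAT-2 helps to form. Food then reaches the intestine, which digests it, stores fat and, in the adult hermaphrodite, secretes yolk for the oocytes. The germ line makes up a large part of a young adult, switches in early adulthood from sperm to oocytes, and holds most of the RNA for cell division, splicing and translation in the whole animal. Low intake slows development and lowers body size and brood size in *eat-2* animals, and extends their life.

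The gene itself was weakly expressed. Transcripts of *eat-2* stood at 7.3, 0.944 and 3.75 normalized counts in *eat-2* libraries, against 14.8, 21.1 and 7.64 in N2 libraries, where a normalized count is a count scaled to a common library size. The highest *eat-2* library lay just under the lowest N2 library, and the log2 fold-change was -1.90 ± 0.72 (standard error, adjusted p = 0.0418). This passed the test on p and fold, but the mean was too low for a call.

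The libraries held 21351152 to 26833841 counts in *eat-2* and 28336227 to 29081076 in N2. The first principal component of the 6 libraries carried 68.7% of the variance and separated the genotypes. The second carried 13.7% and set *eat-2* replicate 1 at -42.970 against 26.850 and 22.980 for *eat-2* replicates 2 and 3. On a log2 CPM scale *eat-2* replicate 1 lay 75.53 and 74.38 units from the other *eat-2* libraries, which lay 37.37 apart, while distances among N2 ran from 55.16 to 74.11 and those between genotypes from 89.82 to 143.6. N2 replicate 2 lay farthest from the *eat-2* libraries. It held more transcripts of early embryos and fewer of sperm than the other N2 libraries, as given below, although the label says adults without eggs. Results that rest on *eat-2* replicate 1 or N2 replicate 2 are given with and without them.

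Past the thresholds, most changes were increases. A gene was called at an adjusted p under 0.05, a fold over 1.5 and a mean normalized count over 10. Of the 15344 tested genes 4228 were called, which is 27.6%. Of these 3674 were higher in *eat-2* (23.9% of the tested genes) and 554 were lower (3.61%). By the adjusted p alone the split was far more even, with 4581 genes higher (29.9%) and 3457 lower (22.5%). The genes that passed the p but not the fold fell more often than they rose, with 2881 lower by a median of 1.24-fold and 772 higher by a median of 1.37-fold. Large changes were few, since 388 called genes were more than 4-fold higher and 57 more than 4-fold lower. Without *eat-2* replicate 1 and N2 replicate 2 together, 3483 genes were called, 3006 higher and 477 lower, and 3122 of these were among the 4228.

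The direction of change went with the level of expression. The tested genes were split into 5 equal groups by mean normalized count. In the lowest group the median log2 fold-change was 0.61, and 29.9% of genes were called higher and 3.32% lower. In the second group 46.6% were called higher, the largest share of the 5, and the median was 0.59. In the third the median was 0.23, and in the fourth -0.14. In the highest group, with a mean over 2064 normalized counts, the median was -0.24, only 2.22% of genes were called higher and 3.55% lower, and by the adjusted p alone 1757 genes were lower against 186 higher. The zero line depends on the scaling. With libraries scaled to total counts the medians of the 5 groups were 0.83, 0.81, 0.45, 0.09 and -0.02, so the order of the groups stayed while the highest group moved close to 0. Total counts moved the median of all tested genes to 0.28, against 0.06 with the TMM scaling used here. For some lists with small decreases, values with total counts or relative to the median of all genes are therefore given below.

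**Figure D1:**
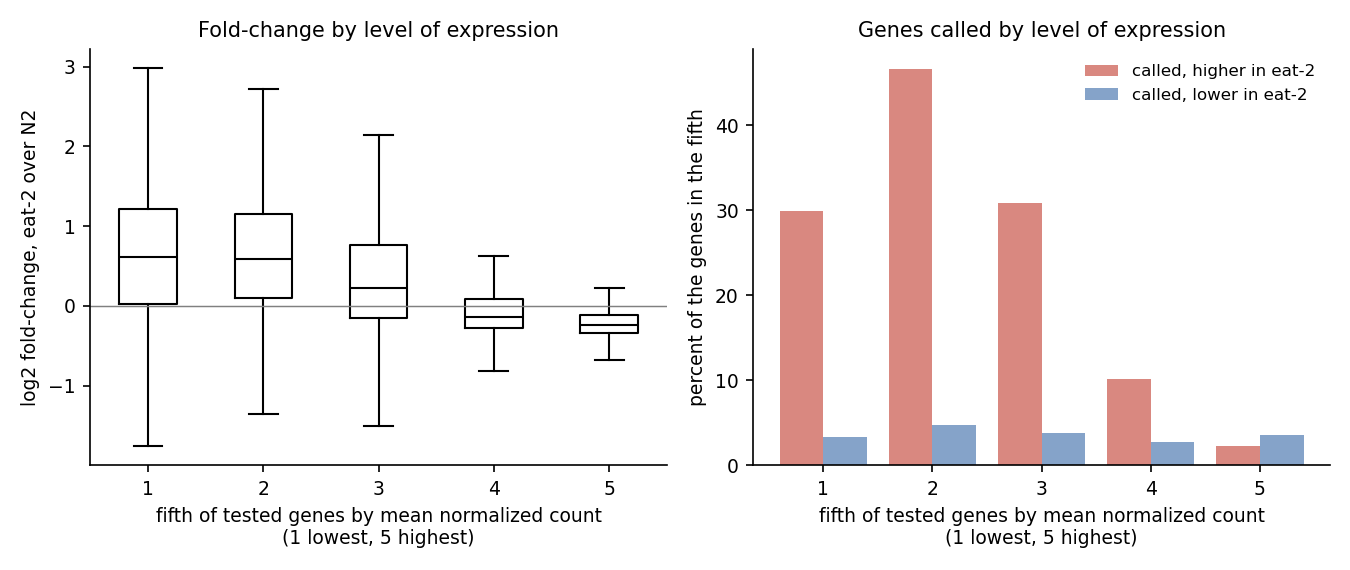
Left, box plots of the log2 fold-change of *eat-2* over N2 for the tested genes in 5 equal groups by mean normalized count (boxes, quartiles; line, median; whiskers, 1.5 times the box; outliers not drawn). Right, percent of genes in each group called higher or lower in *eat-2*. Medians run from 0.61 in the lowest group to -0.24 in the highest, and the share called higher from 46.6% in the second group to 2.22% in the highest.

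Genes of the pharynx rose together. Of 22 genes of pharyngeal muscle and epithelium all were tested, 16 were called higher, and none was lower apart from *eat-2* itself, which was not called. The median log2 fold-change was 0.89. The summed level of the list was 43743 to 55456 normalized counts in *eat-2* libraries and 23324 to 30085 in N2 libraries. *myo-5*, a myosin heavy chain of pharyngeal muscle, had 4511, 3470 and 4054 normalized counts in *eat-2*, against 2006, 1864 and 1615 in N2. The groups did not overlap, as for 33.2% of all tested genes in this direction, and the log2 fold-change was 1.13 ± 0.12 (SE, adjusted p = 7.14e-05). *myo-2*, the other main myosin of the pumping muscle, had 17216, 11929 and 15107 normalized counts in *eat-2*, against 7685, 6514 and 5378 in N2 (1.18 ± 0.16, adjusted p = 0.000297). Thin filament genes of the pharynx moved with the myosins. *tnc-2*, its troponin C, had 1230, 1355 and 1338 normalized counts in *eat-2*, against 677, 485 and 490 in N2 (1.25 ± 0.13, adjusted p = 6.13e-05). *tni-4*, its troponin I, rose by a log2 fold-change of 1.02 ± 0.10 (adjusted p = 5.44e-05). The gap junction genes that couple pharyngeal muscle cells also rose, *inx-6* to 181, 187 and 222 normalized counts in *eat-2*, against 104, 68.4 and 74.2 in N2 (1.26 ± 0.18, adjusted p = 0.000361), and *eat-5* by 1.04 ± 0.24 (adjusted p = 0.00432). *pha-4*, the FOXA factor that specifies the organ, stood at 355, 359 and 320 normalized counts in *eat-2*, against 187, 295 and 171 in N2. It was called (0.66 ± 0.18, adjusted p = 0.00961), but lost the call without N2 replicate 1 (0.57) or N2 replicate 3 (0.51). The strand used in counting is not given, so counts of *tnc-2* and *tni-4*, whose exons overlap those of other genes, can hold reads of those genes.

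The pharyngeal glands moved like the muscle. Of the 10 tested genes of the gland list 7 were higher and none was lower, with a median of 0.96. The *phat* genes encode small secreted proteins of these glands. *phat-6* had 364, 432 and 390 normalized counts in *eat-2*, against 142, 132 and 127 in N2 (1.57 ± 0.12, adjusted p = 1.08e-05). *phat-4* had 919, 828 and 926 in *eat-2*, against 424, 339 and 351 in N2 (1.26 ± 0.13, adjusted p = 4.98e-05), and *phat-7* rose by 0.95 ± 0.12 (adjusted p = 0.000203). The lowest *eat-2* library of each of these 3 genes stood well above the highest N2 library. The pharyngeal muscle and gland lists were called to nearly the same extent without *eat-2* replicate 1 and N2 replicate 2, with 15 and 8 genes higher.

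Body wall muscle did not share this shift. Of 49 sarcomere genes 4 were called higher and none lower, a share below the 23.9% of all genes, and the median was 0.11. *unc-54*, the major myosin of body wall muscle, had 146132, 115979 and 138011 normalized counts in *eat-2*, against 132587, 105961 and 107882 in N2, and the groups overlapped (0.21 ± 0.12, adjusted p = 0.156). The genes that did rise were not myosins. *tmd-2*, a tropomodulin, had 730, 701 and 635 normalized counts in *eat-2*, against 404, 348 and 295 in N2 (0.98 ± 0.11, adjusted p = 0.000108), and *unc-96*, a component of thick filament attachments, rose by 0.73 ± 0.08 (adjusted p = 0.000122).

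**Figure D2:**
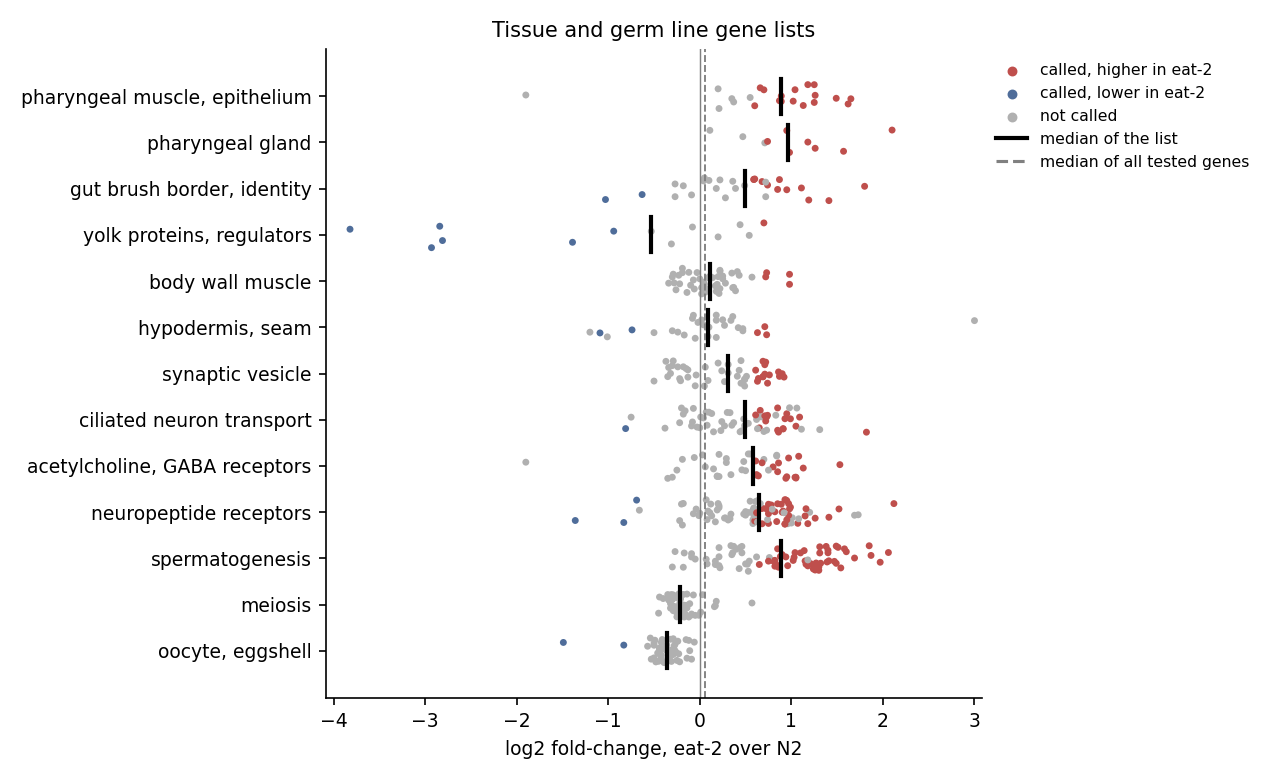
Log2 fold-change of *eat-2* over N2 for each tested member (points) of 13 tissue and germ line lists, with the median of each list (black bar) and of all tested genes (dashed line, 0.06). One point beyond the axis is drawn at its edge. Pharyngeal lists have medians of 0.89 and 0.96 and spermatogenesis 0.89, while oocyte and meiosis genes gather at -0.36 and -0.22.

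Structural genes of the intestine rose while yolk fell. Of 29 genes of the gut brush border and gut identity 12 were higher and 2 lower, with a median of 0.49, and their summed level was 86003 to 95908 normalized counts in *eat-2* and 67388 to 79805 in N2. The intermediate filaments under the apical membrane were among the increases. *ifb-2* had 8090, 7050 and 7748 normalized counts in *eat-2*, against 3349, 2677 and 2562 in N2 (1.41 ± 0.11, adjusted p = 8.81e-06). Its partners *ifc-2* (0.95 ± 0.12, adjusted p = 0.000203) and *ifd-1* (1.19 ± 0.12, adjusted p = 6.14e-05), and *ifo-1*, which organizes these filaments (0.87 ± 0.09, adjusted p = 4.61e-05), rose as well. The classical gut markers *ges-1* and *elt-2* were not called, although *elt-2* stood at the median of the list. The esterase gene *ges-1* had 854, 692 and 710 normalized counts in *eat-2*, against 887, 900 and 771 in N2 (-0.18 ± 0.11, adjusted p = 0.189). The GATA factor gene *elt-2* had 477, 279 and 285 in *eat-2*, against 313, 203 and 223 in N2 (0.49 ± 0.21, adjusted p = 0.067), although it was called with total counts (0.71) and without N2 replicate 1 (0.71), *eat-2* replicate 2 (0.63) or *eat-2* replicate 3 (0.61). *glo-1*, a Rab GTPase needed for gut granules, was the firmer of the 2 decreases, with 28, 42.5 and 43.7 normalized counts in *eat-2*, against 85.4, 65.3 and 83 in N2 (-1.03 ± 0.28, adjusted p = 0.0091).

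All 6 vitellogenin genes fell, but to different degrees. These genes encode yolk proteins and were among the most abundant transcripts. *vit-5* had 21473, 26295 and 30007 normalized counts in *eat-2*, against 165603, 195327 and 184025 in N2 (-2.81 ± 0.16, adjusted p = 1.77e-06). *vit-1* (-2.93 ± 0.22, adjusted p = 8.37e-06), *vit-3* (-3.82 ± 0.29, adjusted p = 8.37e-06) and *vit-4* (-2.84 ± 0.27, adjusted p = 3.36e-05) fell by like amounts. The other 2 fell less. *vit-2* had 272440, 262863 and 292205 normalized counts in *eat-2*, against 494914, 559737 and 536689 in N2 (-0.94 ± 0.11, adjusted p = 0.000164), and *vit-6* had 362894, 385182 and 451504 in *eat-2*, against 1011016, 1099401 and 1034999 in N2 (-1.39 ± 0.14, adjusted p = 5.96e-05). In *vit-1*, *vit-3* and *vit-4* the lowest *eat-2* value was that of replicate 1, at 13292, 921 and 1548 normalized counts. Several vitellogenin genes are close copies, so reads may have been assigned between them, and *vit-2*, *vit-3* and *vit-4* overlap other genes. *ceh-60*, a homeobox gene that activates yolk genes, went the other way, with 385, 437 and 422 normalized counts in *eat-2*, against 296, 207 and 263 in N2 (0.70 ± 0.18, adjusted p = 0.00696). It lost the call without N2 replicate 2 (0.56), and it overlaps another gene.

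Digestive enzymes changed in both directions. Of 60 tested genes for intestinal peptide transport and digestive proteases 8 were higher and 8 lower, with a median of -0.10. With total counts 15 were higher and 5 lower (median 0.13). Several lysosomal and gut proteases were lower. *cpr-6*, a cathepsin B, had 9059, 9262 and 8200 normalized counts in *eat-2*, against 17879, 20294 and 18101 in N2 (-1.09 ± 0.10, adjusted p = 3.36e-05). *asp-4*, a cathepsin D of lysosomes, had 5749, 5276 and 5736 in *eat-2*, against 10313, 10847 and 9735 in N2 (-0.88 ± 0.08, adjusted p = 3.08e-05). *asp-12*, another aspartyl protease, had 213, 167 and 177 in *eat-2*, against 1047, 1272 and 1129 in N2 (-2.63 ± 0.17, adjusted p = 4.41e-06). The cathepsin L gene *cpl-1* fell by 0.62 on the log2 scale (SE 0.08, adjusted p = 0.000219) and *asp-1* by 0.89 (SE 0.15, adjusted p = 0.000762), and *cpl-1* was not called with total counts (-0.40). Among the increases, the cathepsin B gene *cpr-4* had 15112, 13480 and 13380 normalized counts in *eat-2*, against 9405, 6742 and 6082 in N2 (0.92 ± 0.16, adjusted p = 0.000974). The acid phosphatase gene *acp-2* had 259, 278 and 261 in *eat-2*, against 84.3, 69.5 and 69.9 in N2 (1.83 ± 0.13, adjusted p = 6.63e-06). Related proteases of 1 family therefore moved in opposite directions, as *cpr-4* and *cpr-6* did. *asp-4* and *cpr-4* overlap other genes.

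Neuronal lists held more increases than decreases, to differing extents. Of 47 pan-neuronal and synaptic vesicle genes 15 were higher and none lower, with a median of 0.31. This is 31.9% of the list, close to the 30.8% of all genes in the third expression group. The summed level of the list overlapped between the genotypes, at 68823 to 79253 normalized counts in *eat-2* and 69993 to 73821 in N2. *snt-1*, the synaptotagmin of the vesicle, had 473, 374 and 422 normalized counts in *eat-2*, against 254, 224 and 217 in N2 (0.87 ± 0.12, adjusted p = 0.00028). *ric-4*, the SNAP-25 of the release machinery, had 629, 590 and 607 in *eat-2*, against 361, 389 and 365 in N2 (0.71 ± 0.09, adjusted p = 0.00025). *egl-3*, the convertase that cleaves neuropeptide precursors, had 4550, 3366 and 4086 in *eat-2*, against 2556, 2579 and 2307 in N2 (0.69 ± 0.11, adjusted p = 0.000569). In each of these genes the lowest *eat-2* library was above the highest N2 library, and *egl-3* alone of them was not called without *eat-2* replicate 1 (0.58). Among 28 genes for making and moving transmitters 9 were higher and 2 lower, while the summed level was lower, at 18567 to 20167 normalized counts in *eat-2* and 23145 to 23483 in N2. The serotonin transporter gene *mod-5* had 219, 132 and 147 normalized counts in *eat-2*, against 76.9, 53.7 and 66.6 in N2 (1.33 ± 0.21, adjusted p = 0.000657), the GABA transporter gene *snf-11* rose by 1.19 ± 0.17 (adjusted p = 0.000345), and both acetylcholinesterase genes rose, *ace-1* by 0.81 ± 0.15 (adjusted p = 0.00124) and *ace-2* by 1.07 ± 0.21 (adjusted p = 0.00188). *tbh-1*, the tyramine hydroxylase that makes octopamine, went down, with 2588, 3324 and 3601 normalized counts in *eat-2*, against 6397, 6861 and 6307 in N2 (-1.04 ± 0.14, adjusted p = 0.000259). It is known in the gonadal sheath as well as in neurons. *ace-1* was not called without both *eat-2* replicate 1 and N2 replicate 2 (0.56). Overlapping genes can add reads to *mod-5*, *ace-2* and *tbh-1*.

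Among receptors and channels, 3 of 4 lists held larger shares of increases than the 23.9% of all genes. Of 42 acetylcholine and GABA receptor genes 16 were higher and none lower (median 0.58), of 21 glutamate receptor genes 9 and none (0.64), of 67 potassium channel genes 14 and 1 (0.43), and of 26 degenerin genes 10 and none (0.57). The shares higher were 38.1%, 42.9%, 20.9% and 38.5% in this order, so that potassium channels stood below all genes. These counts depended on single libraries, since they became 10 acetylcholine and GABA receptors without *eat-2* replicate 2, 4 glutamate receptors without N2 replicate 3, and 5 degenerins without N2 replicate 2 or 6 without N2 replicate 3. *avr-15*, a glutamate-gated chloride channel that acts in the pharynx, had 907, 798 and 729 normalized counts in *eat-2*, against 461, 453 and 422 in N2 (0.87 ± 0.09, adjusted p = 7.96e-05). *unc-49*, the GABA receptor of body wall muscle, had 967, 866 and 768 in *eat-2*, against 504, 371 and 384 in N2 (1.05 ± 0.15, adjusted p = 0.000361), and the muscarinic receptor gene *gar-2* had 195, 202 and 210, against 121, 93.7 and 77.5 in N2 (1.05 ± 0.16, adjusted p = 0.000509). The potassium channel gene *kvs-2* rose by 1.48 ± 0.19 (adjusted p = 0.000203), with 82.8, 90.6 and 91.1 normalized counts in *eat-2*, against 32.7, 30.5 and 31.7 in N2. Of these genes *gar-2* alone does not overlap another gene.

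Genes for receiving peptide signals held more increases than decreases, as did those for the peptides themselves. Of 90 tested neuropeptide receptor genes 35 were higher and 3 lower, with a median of 0.65, and 26 were higher without N2 replicate 2. The 35 are 38.9% of the list, beside 23.9% of all genes. In the second expression group 46.6% of genes were called higher, and the median was 0.59. *ckr-2*, a receptor of the cholecystokinin type, had 124, 93.5 and 86.1 normalized counts in *eat-2*, against 61.1, 48.4 and 46.9 in N2 (0.95 ± 0.19, adjusted p = 0.00201). *frpr-11* rose by 1.41 ± 0.28 (adjusted p = 0.00201). *egl-6*, a peptide receptor that inhibits egg laying, was lower, with 74.2, 84 and 81.2 normalized counts in *eat-2*, against 138, 131 and 157 in N2 (-0.83 ± 0.17, adjusted p = 0.00271). Among the ligands, *flp-21* had 162, 181 and 190 normalized counts in *eat-2*, against 50.6, 57.9 and 51.3 in N2 (1.74 ± 0.16, adjusted p = 3.36e-05), and *pdf-1* had 1264, 1165 and 1167, against 628, 564 and 595 in N2 (1.01 ± 0.08, adjusted p = 1.22e-05). The N2 values of these peptide genes spread little, so that even changes near 2-fold stood clear of the replicate error. Of 77 tested *nlp* and related genes 44 were higher (57.1%) and none lower.

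Sensory neuron genes gave shares of increases near that of all genes. Of 59 tested genes for transport in cilia 18 were higher and 1 lower (median 0.49), which is 30.5% higher beside 23.9% of all genes, and 11 were higher without N2 replicate 3. The odorant receptor gene *odr-10* had 29.2, 28.3 and 26.2 normalized counts in *eat-2*, against 9.49, 6.32 and 7.64 in N2 (1.82 ± 0.29, adjusted p = 0.000655), and the G-protein gene *odr-3* rose by 0.91 ± 0.19 (adjusted p = 0.00281). Chemoreceptors were mostly too rare to test, since 74 of 1628 passed the filter, of which 15 were higher (20.3%) and 2 lower. *sri-40* was among the decreases, with 372, 548 and 507 normalized counts in *eat-2*, against 1264, 1378 and 1454 in N2 (-1.52 ± 0.14, adjusted p = 2.6e-05). Touch neuron genes gave 4 increases (21.1%) and no decrease among 19, and their summed level was lower, at 20808 to 22962 normalized counts in *eat-2* and 26472 to 29439 in N2. The increases included the POU homeobox gene *unc-86* with 58.4, 40.6 and 51.2 normalized counts in *eat-2*, against 22.1, 28.4 and 15.3 in N2 (1.18 ± 0.33, adjusted p = 0.0103).

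**Figure D3:**
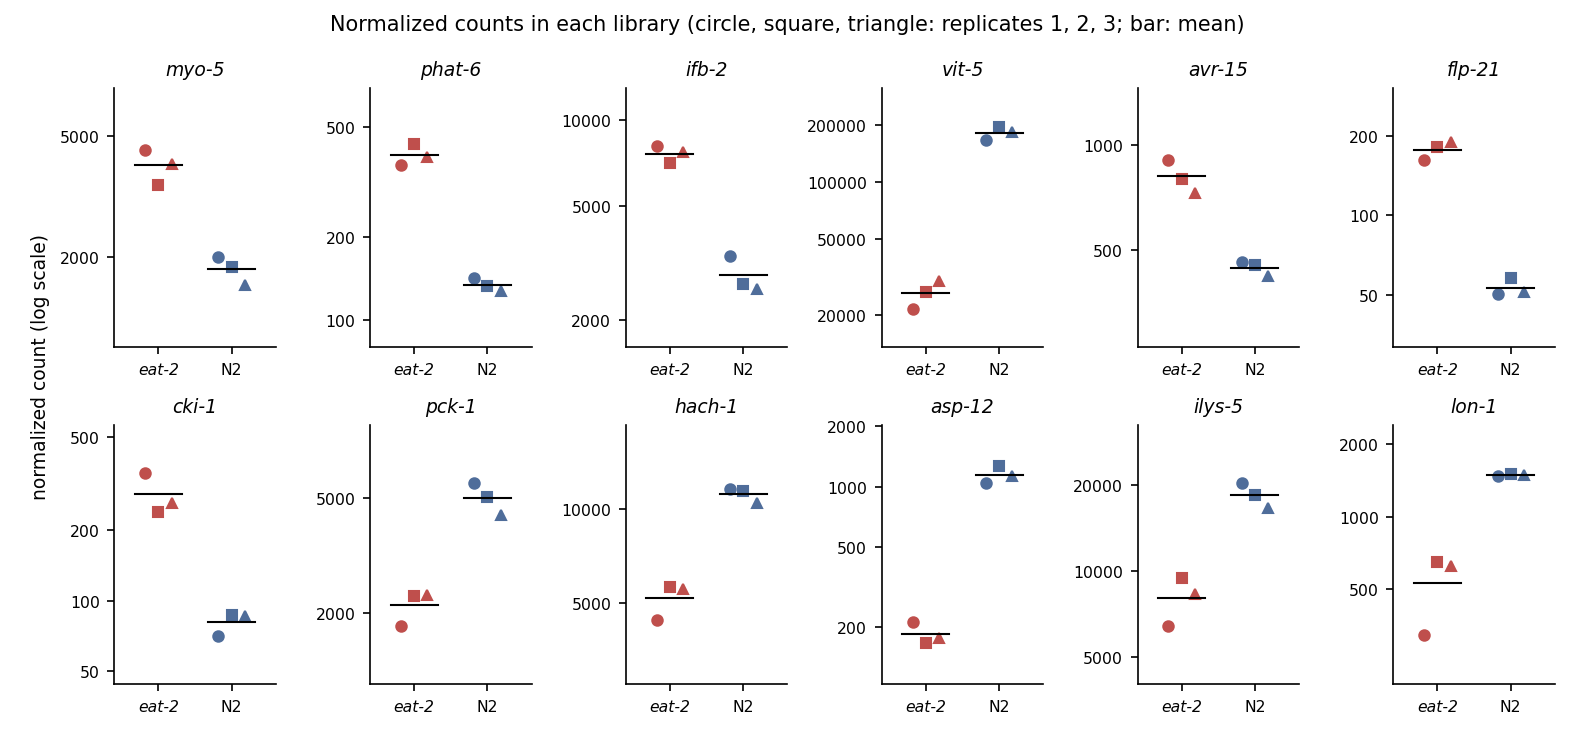
Normalized counts (log axis) of 12 genes named in the text in each of the 3 *eat-2* libraries (left in each panel) and 3 N2 libraries (right), with the mean as a bar. The groups do not overlap in any of the 12, with *ifb-2* at 7050 to 8090 in *eat-2* against 2562 to 3349 in N2, and *vit-5* at 21473 to 30007 in *eat-2* against 165603 to 195327 in N2.

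Oocyte, germ granule, meiosis and replication genes were lower by mostly small amounts, as were many abundant genes. In the highest expression group 1757 of 3069 genes were lower by the adjusted p alone, and the median was -0.24. The median of the meiosis list, given below, was close to this value. All 50 oocyte and eggshell genes had a negative log2 fold-change, with a median of -0.36, and 43 of them were lower by the adjusted p alone, beside 22.5% of all genes. Past the fold threshold there were 2 decreases, and 7 without *eat-2* replicate 3. *perm-2*, needed for the permeability barrier of the eggshell, had 9330, 9628 and 9893 normalized counts in *eat-2*, against 16178, 18124 and 16952 in N2 (-0.83 ± 0.11, adjusted p = 0.00024). *cav-1*, a caveolin of oocytes, had 343, 383 and 386 in *eat-2*, against 610, 1758 and 752 in N2, with N2 replicate 2 far above the rest (-1.49 ± 0.31, adjusted p = 0.00272). *rme-2*, the receptor through which oocytes take up yolk, had 21499, 19423 and 23407 normalized counts in *eat-2*, against 29002, 32344 and 31695 in N2 (-0.53 ± 0.08, adjusted p = 0.000447). *gld-1*, the RNA-binding regulator of meiotic entry and oocyte RNAs, had 22756, 18334 and 20983 in *eat-2*, against 26937, 26503 and 27693 in N2 (-0.39 ± 0.08, adjusted p = 0.0033). Neither passed 1.5-fold, except *rme-2* without *eat-2* replicate 3 (-0.60), but in both genes every *eat-2* library was below every N2 library, as in 26.1% of all tested genes in this direction. *perm-2* overlaps another gene. The germ granule list had 46 of 48 genes negative and 36 lower by the adjusted p alone (median -0.29), the meiosis list 49 of 55 negative and 33 lower (-0.22), and the replication and cell cycle list 68 of 69 negative and 56 lower (-0.30). With total counts these numbers were 8, 2 and 10 lower, and 16 of the 50 oocyte genes. Relative to the median of all genes the oocyte list stood at -0.42 under either scaling, and the germ granule list at -0.35 with TMM and -0.36 with total counts.

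The exception among cell cycle genes was an inhibitor. *cki-1*, the p27-type inhibitor that holds cells out of division, had 352, 239 and 262 normalized counts in *eat-2*, against 70.6, 87.4 and 86.2 in N2 (1.8 ± 0.19, adjusted p = 7.7e-05). Its lowest *eat-2* library was above every N2 library. *cdk-4*, a kinase that drives entry into the cycle, had 196, 226 and 223 in *eat-2*, against 317, 367 and 320 in N2 (-0.64 ± 0.12, adjusted p = 0.00162), and its call was lost without *eat-2* replicate 1 (-0.58), without N2 replicate 2 (-0.57) or with total counts (-0.41). Histone genes had 4 increases (14.8%, below the 23.9% of all genes) and 1 decrease among 27 tested, and 2 increases without *eat-2* replicate 1. The increases included the replication-independent histone H3.3 gene *his-71*, with 692, 583 and 544 normalized counts in *eat-2*, against 326, 300 and 318 in N2 (0.95 ± 0.11, adjusted p = 0.000122).

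Sperm transcripts moved opposite to those of oocytes. Of 78 spermatogenesis genes 47 were higher and none lower, with a median of 0.89, and the summed level was 52239 to 63082 normalized counts in *eat-2* and 26339 to 48659 in N2, the lowest being N2 replicate 2. Without N2 replicate 2 the count was 39 and the median 0.64. *spe-4*, an aspartyl protease-like protein of sperm organelles, had 358, 340 and 358 normalized counts in *eat-2*, against 169, 83.2 and 124 in N2 (1.49 ± 0.22, adjusted p = 0.000451). The Argonaute genes of the male germ line rose with them, *alg-3* to 2083, 1613 and 1581 normalized counts in *eat-2*, against 1027, 366 and 723 in N2 (1.32 ± 0.27, adjusted p = 0.00255), and *alg-4* by 1.39 ± 0.29 (adjusted p = 0.00256). The major sperm protein genes, which are close copies of one another, gave 6 increases among 29 and a median of 0.34, which became 2 increases and 1 decrease and 0.07 without N2 replicate 2. Sperm-rich isoforms of metabolic enzymes showed the same library pattern. The phosphofructokinase gene *pfk-1.2* had 437, 359 and 366 normalized counts in *eat-2*, against 208, 76.8 and 176 in N2 (1.33 ± 0.27, adjusted p = 0.00213), and N2 replicate 2 was again the lowest. The part of stage or of the share of sperm in these values was not tested.

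Early zygotic transcripts checked the stage. They are made once embryonic transcription starts, and their level should be low in adults without eggs. The 9 tested of 15 such genes summed to 550 to 573 normalized counts in *eat-2*, against 590, 1536 and 849 in N2. *pes-10* had 34.1, 11.3 and 18.7 normalized counts in *eat-2*, against 29.5, 151 and 60 in N2, and *vet-6* had 118, 63.3 and 72.4 in *eat-2*, against 74.8, 617 and 162 in N2. N2 replicate 2 was the highest library for both. The 2 calls in this list were lost without it, with log2 fold-changes of -1.09 for *pes-10* (adjusted p = 0.0753) and -0.49 for *vet-6* (adjusted p = 0.257), and also without *eat-2* replicate 2 (-1.60 and -1.58). For *vet-6* the same held without *eat-2* replicate 3 (-1.67). The aggregate clearance genes *sepa-1* (106, 62.3 and 48.7 normalized counts in *eat-2*, against 105, 608 and 177 in N2) and *epg-2* (336, 262 and 226 in *eat-2*, against 288, 1407 and 413 in N2), which act in embryos, followed the same libraries. They account for 2 of the 3 decreases among 31 autophagy genes. The only increase in that list was *lgg-1*, the ATG8 protein of autophagosomes, with 19109, 13581 and 12310 normalized counts in *eat-2*, against 8973, 10679 and 8536 in N2 (0.67 ± 0.14, adjusted p = 0.00239), and it was not called without *eat-2* replicate 1 (0.46). *epg-2*, which overlaps another gene, was not called without N2 replicate 2 (-0.35), *eat-2* replicate 2 (-1.32) or *eat-2* replicate 3 (-1.24).

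The machinery for making and clearing proteins was lower in small, even steps, as were many abundant genes. In the highest of the 5 expression groups 1757 of 3069 genes were lower by the adjusted p alone (median -0.24). In the fourth group 1052 of 3069 were (-0.14). Of 33 proteasome subunit genes none passed the 1.5-fold threshold, but 32 were lower by the adjusted p alone, with a median of -0.40 and a range of -0.50 to 0.22. *rpt-4*, an ATPase of the regulatory particle, had 6234, 6901 and 6902 normalized counts in *eat-2*, against 8839, 9544 and 9422 in N2 (-0.47 ± 0.06, adjusted p = 0.000254), and *rpn-9*, a lid subunit, fell by 0.48 on the log2 scale (SE 0.06, adjusted p = 0.000172). *usp-14*, a deubiquitinase that sits on the proteasome, moved with it, with 6018, 6115 and 6277 in *eat-2*, against 8306, 9039 and 8954 in N2 (-0.51 ± 0.06, adjusted p = 0.000109). In these 3 genes every *eat-2* library was below every N2 library, and *rpt-4* and *rpn-9* overlap other genes. All 58 splicing genes had a negative log2 fold-change (median -0.29), 45 of them lower by the adjusted p alone. *mog-2*, a spliceosome subunit, had 1950, 1850 and 1859 normalized counts in *eat-2*, against 2432, 2436 and 2494 in N2 (-0.38 ± 0.05, adjusted p = 0.000345). Of 54 RNA polymerase II and nuclear pore genes 48 were lower by that measure (median -0.35). With total counts 16 of the 33 proteasome, 16 of the 58 splicing and 10 of the 54 polymerase and pore genes were lower and 1, none and 1 higher. Relative to all genes the proteasome list stood at -0.46 under either scaling.

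Genes of translation differed between lists. Of 34 aminoacyl-tRNA synthetase genes 26 were lower by the adjusted p alone (median -0.27), and of 59 translation factor genes 33 (-0.26). These medians were close to the -0.24 of the highest expression group, in which 1757 of 3069 genes were lower by that measure. *gars-1*, the glycyl-tRNA synthetase, had 5923, 6018 and 6103 normalized counts in *eat-2*, against 7823, 8122 and 8276 in N2 (-0.42 ± 0.06, adjusted p = 0.00026). *eif-3.F*, a subunit of initiation factor 3, had 4346, 4124 and 4201 in *eat-2*, against 5476, 5263 and 5677 in N2 (-0.37 ± 0.06, adjusted p = 0.000589). Of 81 cytosolic ribosomal protein genes 78 were negative, but 12 passed the adjusted p (median -0.23), a smaller share than the 22.5% of all genes, and their summed level was 1816011 to 2068296 normalized counts in *eat-2*, against 2076912 to 2383257 in N2, so that the groups were apart by a narrow margin. Mitochondrial ribosomal protein genes were lower by the adjusted p alone in 15 of 70 (-0.14), close to the share of all genes. Ribosome biogenesis genes had 22 of 36 lower by the adjusted p alone (-0.30), and *fib-1*, the fibrillarin of the nucleolus, passed the fold as well, with 14448, 11293 and 11230 normalized counts in *eat-2*, against 21325, 18740 and 21427 in N2 (-0.73 ± 0.14, adjusted p = 0.00157). Here *eat-2* replicate 1 was closest to N2, and without it 6 ribosome biogenesis genes and 5 translation factors were called lower, against 1 and none with all libraries. With total counts, by the adjusted p alone, 6 synthetase, 10 translation factor and 6 ribosome biogenesis genes were lower, beside 4, 6 and 3 higher. Of the 81 ribosomal protein genes 1 was then lower and 2 higher, and of the 70 mitochondrial ones none was lower and 10 were higher. *fib-1* was not called with total counts (-0.51). Relative to the median of all genes the synthetase list stood at -0.33 under either scaling.

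**Figure D4:**
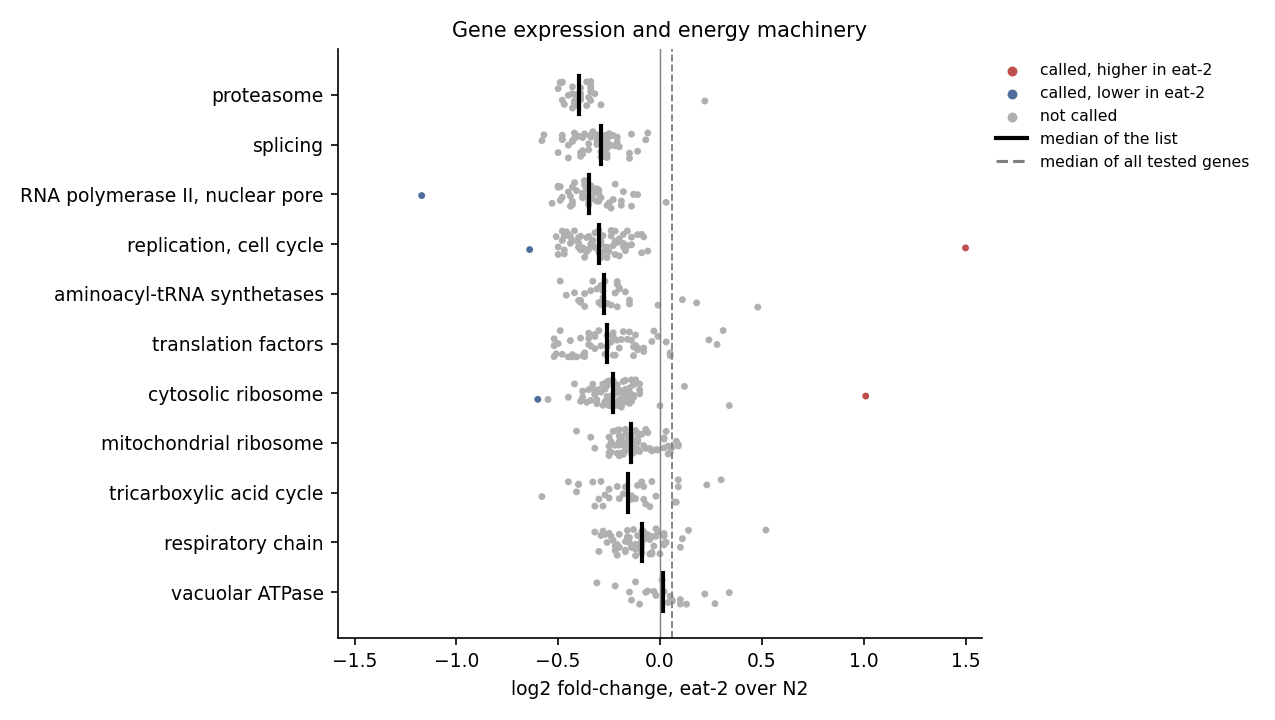
Log2 fold-change of *eat-2* over N2 for each tested member (points) of 11 lists of gene expression and energy machinery, with the median of each list (black bar) and of all tested genes (dashed line, 0.06). One point beyond the axis, *cki-1* at 1.8, is drawn at its edge. The proteasome genes lie in a narrow band around -0.40, and the vacuolar ATPase genes around 0.01.

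Genes of the secretory pathway changed in both directions. With TMM scaling decreases were more numerous with all libraries and without any 1 library other than *eat-2* replicate 1. Of 45 genes of the endoplasmic reticulum 6 were lower and 2 higher, and 23 were lower by the adjusted p alone (median -0.20). With total counts 1 of them was called lower and 3 higher. *sec-61.A*, the channel through which secreted proteins enter the endoplasmic reticulum, had 20046, 24818 and 28498 normalized counts in *eat-2*, against 46516, 38984 and 44998 in N2 (-0.83 ± 0.14, adjusted p = 0.000844). Subunits of the translocon-associated complex fell with it, *trap-3* by 0.71 on the log2 scale (SE 0.10, adjusted p = 0.000332), and *trap-1* by 0.71 (SE 0.14, adjusted p = 0.0018). *eat-2* replicate 1 was the lowest library of each, and without it 4 genes of the list were higher and 3 lower, with *trap-1* at -0.57 and not called. Of 40 cytosolic chaperone and heat-shock factor genes 26 were lower by the adjusted p alone and 1 was higher, and with total counts 5 were lower and 3 higher. *hsp-110* had 13738, 14641 and 16821 normalized counts in *eat-2*, against 25834, 23658 and 27805 in N2 (-0.77 ± 0.09, adjusted p = 0.00016). The mitochondrial chaperonin gene *hsp-60* fell by 0.61 on the log2 scale (SE 0.12, adjusted p = 0.00153). It did not reach 1.5-fold if N2 replicate 1 (-0.58), N2 replicate 3 (-0.57) or *eat-2* replicate 2 (-0.54) was left out, or with total counts (-0.39). The increase was the small heat-shock gene *hsp-12.2*, with 1122, 1441 and 1237 in *eat-2*, against 810, 739 and 699 in N2 (0.76 ± 0.10, adjusted p = 0.000236), which overlaps another gene. Neither *hsp-110* nor *trap-1* and *trap-3* passed 1.5-fold with total counts (-0.55, -0.48 and -0.48).

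Energy metabolism changed at a few steps rather than throughout. Among 34 genes of the tricarboxylic acid cycle and 64 of the respiratory chain none was called, at medians of -0.15 and -0.09, and 17 and 15 of them were lower by the adjusted p alone, beside 1 and 1 higher. Vacuolar ATPase genes, which acidify lysosomes, had a median of 0.01 and no call among 22. With total counts 9 of the cycle genes and 16 of the respiratory genes were higher by the adjusted p alone, beside 3 and none lower, so their direction depends on the scaling. In the cycle *mdh-1*, a malate dehydrogenase, had 9975, 10550 and 10945 normalized counts in *eat-2*, against 14192, 14616 and 14297 in N2 (-0.45 ± 0.06, adjusted p = 0.000297). Gluconeogenesis and carbohydrate stores held larger changes. *pck-1*, the phosphoenolpyruvate carboxykinase that starts gluconeogenesis, had 1802, 2278 and 2310 normalized counts in *eat-2*, against 5627, 5041 and 4380 in N2 (-1.24 ± 0.14, adjusted p = 0.000108). *ldh-1*, the lactate dehydrogenase, had 1249, 1674 and 1727 in *eat-2*, against 2861, 2614 and 2659 in N2 (-0.81 ± 0.10, adjusted p = 0.000205). *pygl-1*, the glycogen phosphorylase, had 22481, 21276 and 24380 in *eat-2*, against 32402, 36625 and 35080 in N2 (-0.61 ± 0.08, adjusted p = 0.000203), and fell below the fold threshold without N2 replicate 2 (-0.58) or *eat-2* replicate 2 (-0.57). The trehalase gene *tre-3* went up, with 1240, 1221 and 1330 in *eat-2*, against 762, 725 and 615 in N2 (0.85 ± 0.11, adjusted p = 0.000188). *icl-1*, the enzyme of the glyoxylate shunt, was not called, and its values were 43687, 13399 and 13627 in *eat-2*, against 13107, 18909 and 12008 in N2, with *eat-2* replicate 1 apart from the rest. With total counts *ldh-1* (-0.58) and *pygl-1* (-0.39) were not called.

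Lipid genes changed by reaction. Of 36 mitochondrial fatty acid oxidation genes 3 were higher and 5 lower, of 36 peroxisomal genes 6 and 3, and of 38 fat and phospholipid synthesis genes 2 and 3. With total counts these were 6 and 4, 12 and 1, and 5 and none, so the balance depends on the scaling. *acox-1.2*, an acyl-CoA oxidase of peroxisomes, had 186, 259 and 265 normalized counts in *eat-2*, against 1091, 675 and 781 in N2 (-1.84 ± 0.24, adjusted p = 0.000232). The increases among peroxisomal genes became 2 without *eat-2* replicate 1. At the start of fat synthesis, *acly-1*, an ATP citrate lyase, had 3446, 3968 and 4075 in *eat-2*, against 6462, 6526 and 6875 in N2 (-0.79 ± 0.08, adjusted p = 7.61e-05). The fatty acid synthase gene *fasn-1* stood at 12812, 10662 and 13387 in *eat-2*, against 16806, 13075 and 15630 in N2, and did not pass 1.5-fold (-0.30 ± 0.10, adjusted p = 0.0284). The desaturases parted, with *fat-7* at 1241, 2642 and 2527 in *eat-2*, against 8079, 6069 and 12354 in N2 (-2.05 ± 0.34, adjusted p = 0.000776), its close relative *fat-6* at 11357, 14958 and 13545 in *eat-2*, against 15096, 11272 and 15561 in N2 (-0.07 ± 0.20, adjusted p = 0.769), and *fat-2*, which acts later in the pathway, at 39533, 39891 and 40428 in *eat-2*, against 24138, 22388 and 25501 in N2 (0.73 ± 0.12, adjusted p = 0.000717). Sphingolipid genes had 4 increases and 2 decreases among 29. *sptl-3*, a serine palmitoyltransferase of its first step, had 1115, 1395 and 1438 in *eat-2*, against 2402, 2201 and 2256 in N2 (-0.80 ± 0.11, adjusted p = 0.000381), while *cgt-1*, which glucosylates ceramide, had 176, 273 and 263 in *eat-2*, against 50.6, 65.3 and 45.8 in N2 (2.14 ± 0.29, adjusted p = 0.000297). Among 31 lipase and lipid droplet genes 12 were higher and 2 lower. *C40H1.8*, a predicted lipase, had 140, 159 and 152 in *eat-2*, against 30.6, 45.3 and 33.8 in N2 (2.04 ± 0.18, adjusted p = 2.8e-05). *mxl-3*, a transcription factor that represses lysosomal lipases in fed animals, had 335, 1153 and 944 in *eat-2*, against 2706, 1938 and 1897 in N2 (-1.42 ± 0.35, adjusted p = 0.00573). With total counts *acly-1* (-0.56) and *sptl-3* (-0.57) were not called.

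Called genes of amino acid breakdown were mostly lower with TMM scaling, but not with total counts. Of 24 genes for propionate and branched-chain amino acids 4 were lower and none higher, and 14 were lower by the adjusted p alone (median -0.24). *hach-1*, a hydrolase of valine breakdown and of the shunt for propionate, had 4414, 5637 and 5537 normalized counts in *eat-2*, against 11592, 11384 and 10452 in N2 (-1.1 ± 0.11, adjusted p = 4.35e-05). Its highest *eat-2* library was well under the lowest N2 library. *alh-8*, a dehydrogenase of the same routes, fell by 0.61 on the log2 scale (SE 0.08, adjusted p = 0.000261), near the threshold, and was not called without N2 replicate 1 (-0.54) or *eat-2* replicate 2 (-0.57), or with total counts (-0.39). Of 31 genes for tyrosine, tryptophan and other amino acids 5 were lower and 1 higher, and without *eat-2* replicate 1 there were 2 decreases and 1 increase. The increase was the glutamine synthetase gene *gln-2*, with 1295, 1049 and 1016 normalized counts in *eat-2*, against 821, 251 and 539 in N2 (1.06 ± 0.31, adjusted p = 0.0138). *kynu-1*, the kynureninase of tryptophan breakdown, had 905, 1463 and 1528 in *eat-2*, against 2639, 2027 and 2507 in N2 (-0.88 ± 0.17, adjusted p = 0.00153). In methionine and one-carbon metabolism 3 of 29 genes were higher and 5 lower, with 2 and 3 without *eat-2* replicate 1, and 1 and 6 without N2 replicate 2. The increases included *sams-5*, an S-adenosylmethionine synthetase (0.76 ± 0.23, adjusted p = 0.017), and *cysl-4* (0.94 ± 0.32, adjusted p = 0.028), and neither was called without N2 replicate 2 (0.49 and 0.60). *cysl-2*, a cyanoalanine synthase, had 497, 684 and 613 in *eat-2*, against 2303, 1536 and 1351 in N2 (-1.53 ± 0.23, adjusted p = 0.000451). *dao-3*, an enzyme of folate metabolism, had 265, 369 and 361 in *eat-2*, against 693, 868 and 799 in N2 (-1.24 ± 0.24, adjusted p = 0.00155). With total counts the propionate and branched-chain list had 2 genes higher and 2 lower. The tyrosine and tryptophan list then had 4 and 1, and the methionine and one-carbon list 4 and 3. *cysl-2* and *alh-8* overlap other genes.

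Metal genes had 3 increases and 3 decreases among 27, with a median of 0.03, and 6 and 2 with total counts. *ftn-1*, a ferritin that stores iron, had 105, 241 and 202 normalized counts in *eat-2*, against 41.1, 46.3 and 32.7 in N2 (2.19 ± 0.43, adjusted p = 0.00185), and *smf-3*, which imports it, rose by 1.46 ± 0.29 (adjusted p = 0.00206). *fpn-1.1*, a ferroportin, had 326, 363 and 335 in *eat-2*, against 715, 628 and 676 in N2 (-0.98 ± 0.15, adjusted p = 0.000452). The metallothionein gene *mtl-2* had 64.5, 45.3 and 52.4 in *eat-2*, against 194, 198 and 232 in N2 (-1.95 ± 0.23, adjusted p = 0.000132). In each of these genes the 2 groups were apart.

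Cuticle genes changed in both directions, and part of this rested on single libraries. Of 130 tested cuticle collagen genes 60 were higher and 17 lower, with a median of 1.25. Without *eat-2* replicate 1 the numbers were 39 higher and 15 lower, and the median was 0.48. Without N2 replicate 2 they were 42 and 17 (median 1.19), and without both of these libraries 31 and 17 (0.32). The abundant adult collagens were among the decreases. *col-119* had 44062, 50701 and 54117 normalized counts in *eat-2*, against 94656, 82995 and 91644 in N2 (-0.86 ± 0.11, adjusted p = 0.00023), and *col-101* had 4587, 8894 and 8470 in *eat-2*, against 28355, 30937 and 28105 in N2 (-1.99 ± 0.21, adjusted p = 6.48e-05). The summed level of all collagens was lower, at 744045 to 822850 normalized counts in *eat-2* and 868226 to 1130665 in N2. The increases lay among genes of low level in N2. *col-13* had 459, 270 and 320 in *eat-2*, against 50.6, 32.6 and 31.7 in N2 (3.18 ± 0.36, adjusted p = 0.000104), and *col-113* had 363, 283 and 237 in *eat-2*, against 36.9, 26.3 and 33.8 in N2 (3.18 ± 0.23, adjusted p = 6.92e-06). These rose in every *eat-2* library. *col-19*, the collagen most used as an adult marker, was not called, with 48126, 45991 and 46924 in *eat-2*, against 63760, 49307 and 59703 in N2 (-0.29 ± 0.16, adjusted p = 0.13). *lin-29*, the factor of the larval-to-adult switch, stood at 144, 147 and 147 in *eat-2*, against 138, 114 and 111 in N2 (0.27 ± 0.15, adjusted p = 0.145). *col-113* overlaps another gene, as does *lin-29*.

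Moulting and late larval cuticle genes were high in *eat-2* replicate 1. *rol-6*, a collagen made before the adult moult, had 286, 3.78 and 4.99 normalized counts in *eat-2*, against 2.11, 1.05 and 3.27 in N2 (5.43 ± 1.74, adjusted p = 0.0211). *bli-1*, a collagen of the struts of the adult cuticle, had 449, 22.7 and 41.2 in *eat-2*, against 16.9, 26.3 and 39.3 in N2 (2.62 ± 0.99, adjusted p = 0.0426). *qua-1*, a hedgehog-related gene needed for moulting, had 436, 71.8 and 92.4 in *eat-2*, against 60.1, 60 and 37.1 in N2 (1.92 ± 0.61, adjusted p = 0.0203). Replicates 2 and 3 of *eat-2* were near the N2 level in each, and without *eat-2* replicate 1 none was called, with log2 fold-changes of 0.98, 0.19 and 0.64. *rol-6* and *bli-1* also lost the call without any 1 N2 library, and *qua-1* without N2 replicate 3 (1.72). *mlt-10*, a moulting gene, was not called, but stood at 405, 58.5 and 56.2 in *eat-2*, against 106, 188 and 85.1 in N2, and *sqt-3* at 1083, 191 and 215 in *eat-2*, against 202, 424 and 146 in N2. In both genes *eat-2* replicate 1 was the highest of the 6 libraries and N2 replicate 2 the next. *bli-1*, *mlt-10* and *sqt-3* overlap other genes. Of 45 moulting genes 4 were higher and 4 lower, and 3 higher and 7 lower without *eat-2* replicate 1. Of 56 hedgehog- and patched-related genes 13 were higher and 3 lower, and 7 and 4 without it.

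**Figure D5:**
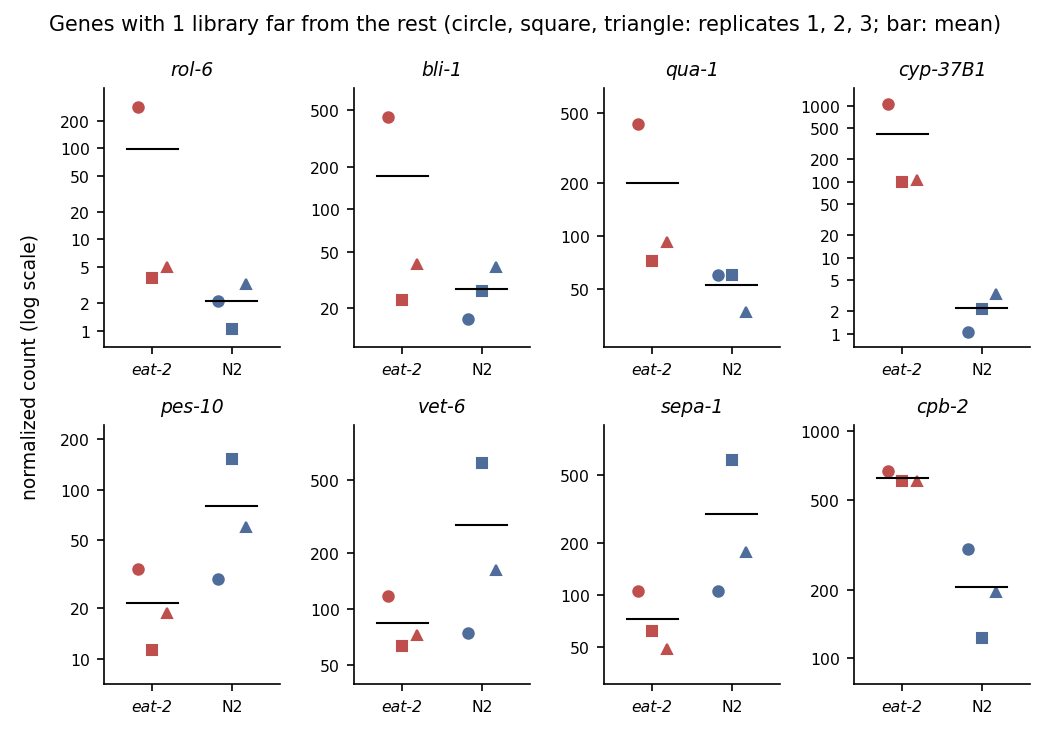
Normalized counts (log axis) of 8 genes in each of the 3 *eat-2* libraries (left in each panel) and 3 N2 libraries (right), with the mean as a bar. *eat-2* replicate 1 (circle) is far above the other *eat-2* libraries for *rol-6*, *bli-1*, *qua-1* and *cyp-37B1*. N2 replicate 2 (square) is the highest N2 library for *pes-10*, *vet-6* and *sepa-1* and the lowest for the sperm gene *cpb-2*.

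Among other matrix genes increases outnumbered decreases, as they did among all genes (23.9% higher and 3.61% lower). The *abu* and related *pqn* genes encode proteins rich in glutamine and asparagine, several of them of the pharyngeal lining. Of 57 tested 22 were higher (38.6%) and 1 lower (median 0.69, and 0.30 without *eat-2* replicate 1), but 19 had a negative log2 fold-change. The summed level of the list was lower, at 89660 to 105757 normalized counts in *eat-2* and 112318 to 114736 in N2. *abu-11* had 245, 189 and 180 normalized counts in *eat-2*, against 9.49, 9.47 and 17.5 in N2 (4.06 ± 0.26, adjusted p = 4.41e-06), *abu-10* had 173, 130 and 126 in *eat-2*, against 3.16, 7.37 and 3.27 in N2 (4.92 ± 0.33, adjusted p = 4.89e-06), and *pqn-94* had 1391, 1380 and 1298 in *eat-2*, against 439, 378 and 325 in N2 (1.83 ± 0.15, adjusted p = 1.22e-05). Among 39 astacin and matrix metalloprotease genes 17 were higher (43.6%) and 2 lower, with *adt-3* at 1124, 847 and 906 in *eat-2*, against 302, 181 and 214 in N2 (2.04 ± 0.21, adjusted p = 6.77e-05). Hypodermal identity genes as a whole did not move, with 3 increases (9.68%) and 2 decreases among 31 and a median of 0.09. Basement membrane genes had 2 increases (7.69%) among 26 and a median of -0.04. Both shares of increases were below that of all genes.

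Defence genes changed in both directions, with more increases than decreases. Of 74 tested lysozyme, saposin and antimicrobial peptide genes 31 were higher and 6 lower (median 0.64), and of 122 C-type lectin genes 34 and 7 (0.33). These are 41.9% and 27.9% higher beside 23.9% of all genes, so that the share of lectins was near that of all genes. The antimicrobial peptide genes of the *fipr* family, close copies of each other, were among the increases, with *fipr-2* at 1469, 2370 and 1869 normalized counts in *eat-2*, against 686, 528 and 571 in N2 (1.68 ± 0.16, adjusted p = 3.32e-05). The decreases included effectors of the intestine. *ilys-5*, a lysozyme of the invertebrate type, had 6450, 9458 and 8337 in *eat-2*, against 20249, 18358 and 16559 in N2 (-1.19 ± 0.16, adjusted p = 0.00031), and *spp-17*, a saposin-like protein, had 1082, 1388 and 1111 in *eat-2*, against 4285, 4251 and 3757 in N2 (-1.78 ± 0.22, adjusted p = 0.000199). Infection response genes gave 22 increases and 4 decreases among 59. *pals-32*, of a family that responds to intracellular infection, was higher, with 600, 499 and 543 in *eat-2*, against 65.3, 33.7 and 55.7 in N2 (3.41 ± 0.23, adjusted p = 4.89e-06). Genes of the response to bacteria were among those that fell, *irg-4* with 65.7, 67 and 92.4 in *eat-2*, against 425, 214 and 321 in N2 (-2.09 ± 0.26, adjusted p = 0.000172), and *dod-23* with 490, 665 and 576 in *eat-2*, against 1888, 1963 and 1454 in N2 (-1.61 ± 0.20, adjusted p = 0.000178). *dod-6*, another member of the infection response list, was higher (1.18 ± 0.17, adjusted p = 0.000427). *pals-32* overlaps another gene.

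Substrate adaptors of ubiquitin ligases formed the largest tested family. Of 341 tested F-box, MATH and BATH genes 101 were higher (29.6%) and 30 lower (8.8%). The decreases rested on single libraries, since they numbered 7 without N2 replicate 2, 56 without N2 replicate 1 and 16 without *eat-2* replicate 2, while the increases numbered 89 without N2 replicate 2. *fbxa-21* had 378, 305 and 250 normalized counts in *eat-2*, against 39, 38.9 and 31.7 in N2 (3.08 ± 0.35, adjusted p = 0.000104). *fbxa-192* had 47.5, 59.5 and 57.4 in *eat-2*, against 182, 205 and 213 in N2 (-1.86 ± 0.16, adjusted p = 1.69e-05), and its call held without any 1 library. Transthyretin-related genes, a large family of secreted proteins in nematodes, gave 23 increases and 2 decreases among 55, with *ttr-21* at 611, 675 and 644 in *eat-2*, against 220, 273 and 262 in N2 (1.35 ± 0.10, adjusted p = 8.37e-06).

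Enzymes against oxidants and toxins showed no common direction. Antioxidant genes had 4 increases and 1 decrease among 33 (median -0.00). *gpx-3*, a glutathione peroxidase, had 217, 409 and 366 normalized counts in *eat-2*, against 104, 112 and 104 in N2 (1.63 ± 0.21, adjusted p = 0.00023). *sod-3*, the mitochondrial superoxide dismutase often used as a reporter of DAF-16, had 3.65, 17.9 and 26.2 in *eat-2*, against 49.5, 63.2 and 58.9 in N2 (-1.83 ± 0.53, adjusted p = 0.0134), and *gst-4*, a glutathione transferase used as a reporter of SKN-1, had 91.3, 239 and 228 in *eat-2*, against 484, 457 and 382 in N2 (-1.24 ± 0.27, adjusted p = 0.00298). In both *eat-2* replicate 1 was the lowest library. *gsr-1*, the glutathione reductase, fell by less than 1.5-fold, with 4668, 4825 and 5004 in *eat-2*, against 6435, 7173 and 6880 in N2 (-0.50 ± 0.06, adjusted p = 0.000128). *ugt-34*, a glycosyltransferase, had 76.7, 223 and 205 in *eat-2*, against 3.16, 3.16 and 2.18 in N2 (5.83 ± 0.57, adjusted p = 4.83e-05), and the P-glycoprotein gene *pgp-14* had 2806, 1886 and 2080 in *eat-2*, against 846, 822 and 726 in N2 (1.5 ± 0.18, adjusted p = 0.000172). *sod-3*, *gst-4* and *gsr-1* overlap other genes.

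Regulators known from studies of low food intake showed no common direction as transcripts. Of 43 such transcription factors 5 were higher and 3 lower, with a median of -0.01, and without N2 replicate 3 the increases were 2, without N2 replicate 1 they were 8. By the adjusted p alone 9 were higher and 11 lower, and log2 fold-changes ran from -1.42 to 1.06. *pha-4* and *mxl-3*, given above, were called higher and lower. *daf-16*, the FOXO factor of insulin signalling, had 7191, 5616 and 6291 normalized counts in *eat-2*, against 6494, 5816 and 6124 in N2 (0.05 ± 0.08, adjusted p = 0.619). *skn-1*, an NRF-type factor, had 6309, 5532 and 6242 in *eat-2*, against 7060, 7784 and 7505 in N2 (-0.31 ± 0.07, adjusted p = 0.00402), and *nhr-49*, a regulator of fat oxidation, had 4029, 4387 and 4355 in *eat-2*, against 4138, 4402 and 4307 in N2 (-0.01 ± 0.07, adjusted p = 0.924). *hlh-30*, the TFEB factor of lysosome and autophagy genes, passed the p but not the fold, with 2013, 1584 and 1755 in *eat-2*, against 1373, 1293 and 1206 in N2 (0.47 ± 0.10, adjusted p = 0.0029), and it was called with total counts (0.69). *pqm-1*, a zinc finger factor, was called, with 997, 1867 and 1760 in *eat-2*, against 725, 805 and 692 in N2 (1.06 ± 0.20, adjusted p = 0.00155). Among 34 genes of TOR complexes and nutrient sensing 3 were higher (8.82%, below the 23.9% of all genes) and none lower. By the adjusted p alone 4 of these 34 were higher and 10 lower (median -0.15), but 10 higher and none lower with total counts. *let-363*, the TOR kinase, had 9043, 6482 and 8352 in *eat-2*, against 9417, 10640 and 9720 in N2 (-0.32 ± 0.12, adjusted p = 0.0424), and *crtc-1*, a coactivator downstream of AMP kinase, had 1123, 873 and 878 in *eat-2*, against 525, 564 and 448 in N2 (0.90 ± 0.14, adjusted p = 0.000601). The insulin receptor gene *daf-2* was not called (0.02 ± 0.17, adjusted p = 0.943). Counts of *daf-16* and *skn-1* can hold reads of other genes.

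Body size signalling had 1 clear decrease. TGF-beta signals of the BMP type set body length, and *lon-1*, a secreted protein that they repress, shortens the animal when abundant. *lon-1* had 324, 647 and 624 normalized counts in *eat-2*, against 1470, 1498 and 1479 in N2 (-1.48 ± 0.21, adjusted p = 0.000338). The BMP co-factor gene *sma-10* had 1786, 1333 and 1340 in *eat-2*, against 862, 979 and 789 in N2 (0.76 ± 0.15, adjusted p = 0.00209), and the kinase gene *sma-5*, which also promotes growth, had 919, 1241 and 1076 in *eat-2*, against 588, 562 and 621 in N2 (0.87 ± 0.11, adjusted p = 0.000178). Of 27 genes of this list 5 were higher and 1 lower, and 3 were higher without N2 replicate 3.

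Nuclear hormone receptor and homeobox genes held more increases than decreases. Of 191 tested nuclear hormone receptor genes 68 were higher and 11 lower, with a median of 0.45. *nhr-120* had 279, 252 and 267 normalized counts in *eat-2*, against 123, 114 and 102 in N2 (1.24 ± 0.15, adjusted p = 0.000171), and *nhr-206* had 112, 81.2 and 88.6 in *eat-2*, against 26.3, 25.3 and 22.9 in N2 (1.91 ± 0.25, adjusted p = 0.000249). *nhr-57*, a gene induced by low oxygen, was lower, with 114, 67 and 64.9 in *eat-2*, against 188, 148 and 143 in N2 (-0.96 ± 0.22, adjusted p = 0.00382), and it overlaps another gene. The decreases numbered 7 without *eat-2* replicate 1. Of 75 homeobox genes 19 were higher (25.3%, near the 23.9% of all genes) and 3 lower, and 12 were higher without N2 replicate 3. *ttx-1*, which specifies a thermosensory neuron, had 129, 135 and 156 in *eat-2*, against 75.9, 81.1 and 62.2 in N2 (0.94 ± 0.17, adjusted p = 0.00112). Both families contain many genes of the lower expression groups, in which 29.9% to 46.6% of all genes were called higher.

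Outside the lists, 2781 of 11308 tested genes were higher and 333 lower. Among the largest increases there were genes of little known function. *dbd-13* had 913, 792 and 673 normalized counts in *eat-2*, against 16.9, 7.37 and 13.1 in N2 (5.98 ± 0.31, adjusted p = 1.53e-06), and *Y47D7A.13* had 1152, 877 and 871 in *eat-2*, against 10.5, 11.6 and 86.2 in N2 (4.75 ± 0.62, adjusted p = 0.000248). *mbug-1* had 2351, 1918 and 1881 in *eat-2*, against 376, 283 and 193 in N2 (2.85 ± 0.32, adjusted p = 0.00011). Among the decreases, *F46F2.3* had 155, 439 and 461 in *eat-2*, against 2320, 2573 and 2961 in N2 (-2.89 ± 0.32, adjusted p = 0.000104), the acid phosphatase gene *pho-11* had 1283, 636 and 581 in *eat-2*, against 4063, 3172 and 3203 in N2 (-2.06 ± 0.25, adjusted p = 0.000172), and *nit-1*, a nitrilase, had 32.9, 46.3 and 48.7 in *eat-2*, against 341, 240 and 201 in N2 (-2.61 ± 0.26, adjusted p = 4.98e-05). Among the most abundant called genes, *lec-2*, a galectin, had 22409, 19152 and 20600 in *eat-2*, against 13749, 11144 and 10906 in N2 (0.80 ± 0.10, adjusted p = 0.000174). *rrn-3.1*, a ribosomal RNA gene, was called on 1 library, with 34587, 476336 and 92424 in *eat-2*, against 45577, 62596 and 55553 in N2, and without *eat-2* replicate 2 its log2 fold-change was 0.22 (adjusted p = 0.686). It also lost the call without any 1 N2 library (1.78 to 1.99). Counts of *mbug-1*, *pho-11*, *nit-1* and *rrn-3.1* can include overlapping genes.

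Some small changes had small p-values, and the genes below were picked by their p. The 6 smallest p-values on either side with a fold under 1.5 included *pxl-1*, the paxillin of muscle attachments, with 1418, 1320 and 1316 normalized counts in *eat-2*, against 910, 931 and 904 in N2 (0.56 ± 0.06, adjusted p = 8.14e-05), and *sgk-1*, a growth and stress kinase, with 1379, 1370 and 1313 in *eat-2*, against 921, 946 and 884 in N2 (0.56 ± 0.07, adjusted p = 0.00023). On the lower side was *pph-4.2*, a phosphatase subunit, with 2027, 1987 and 2180 in *eat-2*, against 2789, 2954 and 2980 in N2 (-0.49 ± 0.06, adjusted p = 0.00013). The 6 libraries of each gene fell into 2 groups with no overlap, as for 33.2% of all tested genes upward and 26.1% downward. With total counts *pxl-1* and *sgk-1* passed 1.5-fold (0.79 each).

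Along the genome the changes were spread unevenly. By the WBcel235 annotation, 29.5% of tested genes on chromosome V were called higher and 3.75% lower (median 0.27), the largest share of the 6 chromosomes. Chromosome III had 19.1% higher and 2.25% lower (-0.09), and chromosome I 21.8% and 2.58% (-0.08). Chromosome X had 20.3% higher and 5.83% lower (0.19), the largest share of decreases past the fold threshold. By the adjusted p alone it had the smallest share, with 14.3% of its genes lower against 30.1% on chromosomes I and III. It carries 5 of the 6 vitellogenin genes. The chromosomes differ in the kinds of genes that they carry, and no test of the difference was made.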

How the data were processed

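RNA from whole young adults was sequenced in 12 libraries, 6 of them compared here. The authors aligned reads with TopHat (version 1.3) to WBcel215, counted them per gene with HTSeq and deposited the raw counts in 1 table. One blank line was left out, no column of comparisons was used, and the sources used here do not give the strand of counting. Counts were tested with edgeR (version 4.0.16, R 4.3.3) in place of the DESeq used in the study, by a quasi-likelihood fit over all 12 libraries with TMM scaling, filterByExpr by genotype, and Benjamini-Hochberg adjustment over 15344 genes. The thresholds of a call were an adjusted p of 0.05, a fold of 1.5 and a mean normalized count of 10. Errors are standard errors of the log2 fold-change. The replicates are biological replicates per the labels. Simulated counts were tested first.

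Gene lists (91, of which 1 matched no gene) and the rule for named genes were written with earlier results of these data known. The rule took up to 4 called members with the smallest p per list and direction (2 where none was called), the vitellogenin genes and *eat-2*, the 10 largest changes per direction outside the lists with a mean over 100 and no overlap, the 8 most abundant called genes and the 6 smallest p under 1.5-fold per direction. A further 20 genes were named for known roles after their values were seen. Of the expressed genes 98.5% matched a name in WBcel235, which served for names, chromosomes and exon overlaps only, and the planned description of promoters was not made. Alternatives were DESeq2 (version 1.42.0) tests and size factors, total counts, TMM without germ line and yolk genes, no filter, a test against 1.5-fold, the 6 libraries alone, the replicate number as a block, and each library left out. Leaving out both *eat-2* replicate 1 and N2 replicate 2 was chosen after seeing the data.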

Additional observations from a re-analysis of the deposited data

Results flagged for a closer look

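The same *eat-2* mutation was also measured with *nhr-62(tm1818)*, a deletion allele that the paper says may not be null. By the interaction term of the edgeR fit the effect of *eat-2* differed between the 2 backgrounds for 12 of the 480 named genes. Most named genes were picked by their values in *eat-2* against N2, which are also part of this term. That choice favours larger effects in the wild-type background. Over all 15344 genes 40 passed an adjusted p of 0.05 in this test and 2193 an unadjusted p of 0.05. Each difference below is the log2 fold-change in the wild-type background minus that in the *nhr-62* background.

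Increases were larger in the wild-type background for 6 genes beside *phat-4*. *dbd-13* had 5.98 in the wild-type and 2.98 in the *nhr-62* background, a difference of 3.00 (adjusted p = 0.0131). *col-113* had 3.18 and 1.08 (difference 2.1, adjusted p = 0.0205), *F57A8.6* 3.08 and 1.0 (2.08, adjusted p = 0.0131), and *pals-32* 3.41 and 1.47 (1.94, adjusted p = 0.0231). *fbxa-125* had 2.27 and 0.42 (1.85, adjusted p = 0.0231) and *acp-2* 1.83 and 0.18 (1.66, adjusted p = 0.00217). The gland gene *phat-4* had 1.26 and 0.11 (1.15, adjusted p = 0.0217).

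Decreases were larger in the wild-type background for *acdh-2*, an acyl-CoA dehydrogenase, with -6.37 in the wild-type and -3.02 in the *nhr-62* background (-3.35, adjusted p = 0.0205), for the protease gene *asp-12* with -2.63 and -0.40 (-2.23, adjusted p = 0.00217), and for the citrate lyase gene *acly-1* with -0.79 and -0.14 (-0.65, adjusted p = 0.0483). For the F-box genes *fbxa-192* (-1.86 and 0.77, difference -2.64, adjusted p = 0.0012) and *fbxa-193* (-1.39 and 1.41, difference -2.80, adjusted p = 0.00217) the values had opposite signs. *acdh-2*, *col-113* and *pals-32* overlap other genes.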

How the results depend on the processing

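With total counts 276 genes were lower, against 554. Against a 1.5-fold null 1850 genes were called, 1685 higher and 165 lower, and by the adjusted p alone 8038, of which 3457 were lower. Leaving out 1 library at a time gave 3664 to 4447 calls, 3115 to 3821 higher and 470 to 626 lower. Every other alternative kept these counts within 1.5 times. With replicates 2 and 3 only, *bli-1* reversed to -0.05. The replicate block gave 4278 calls, 3701 higher and 577 lower, but same-numbered libraries deviated together by correlations of -0.017 to 0.023 only, so the numbers were not taken as pairs. Of the named genes 63 lost their call with total counts, 187 against the 1.5-fold null, 18 to 55 without 1 library and 68 without both libraries that stand apart. With 3 libraries per group, small changes of genes with few counts could not be resolved, and p-values cover the spread between these libraries only.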
